A study of Mus musculus with 6 samples.

Results

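The genes described are those of the mitotic spindle, the kinetochore and cytokinesis, in megakaryocyte progenitors of mice with the GATA1s genotype. The list named 55 genes, made from known functions but chosen with earlier results of these data known. A member was measured where a probe set of the array was annotated to that gene alone, and the probe set with the highest mean log2 signal over all 6 arrays stood for the gene. This gave 54 of the 55 members, out of 18193 genes named on the array, and Ccnb1 was not analysed here. The arrays held RNA from 3 samples of adult bone marrow, taken at 12 to 18 weeks of age, and from 3 samples of fetal liver, taken at E13.5. All mice were C57BL/6 and all carried GATA1s, a form of GATA1 that lacks the amino-terminal part of this regulator of megakaryocyte and erythroid genes. No sample with full-length GATA1 was analysed here, so the comparison is of tissue and stage within this genotype. Cells had been sorted by flow cytometry as negative for lineage markers and Sca-1 and positive for c-kit, CD150 and CD41. The labels call the samples biological replicates without giving the number of animals, so each p-value reflects only how far these samples vary.

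A cell enters mitosis when CDK1 with its cyclins becomes active, and Polo-like and Aurora kinases then drive spindle assembly. Kinetochores attach chromosomes to the spindle, the spindle checkpoint holds back the anaphase-promoting complex until all are attached, and a contractile ring directed by the central spindle divides the cell. Megakaryocytes are known for endomitosis, in which chromosomes are duplicated and separated while the contractile ring fails, so that polyploid cells form. Many genes of this programme are transcribed late in the cell cycle, and their promoters often hold a CCAAT box and a cell cycle genes homology region.

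The promoters of 5 members are shown because these genes were among those with the smallest adjusted p in their role groups (Cdk1, Cdc20, Cenpa and Hmmr) or the log2 fold change nearest 0 among all members (Anln). They are RefSeq sequences of GRCm38.p6, from 200 bases before to 30 bases after the annotated start. Cdk1 lies at chr10:69352883-69353112 on the minus strand, Cdc20 at chr4:118437314-118437543 on the minus strand and Cenpa at chr5:30666686-30666915 on the plus strand. Hmmr lies at chr11:40733408-40733637 and Anln at chr9:22389177-22389406, both on the minus strand. Each is written 5′ to 3′ in the direction of transcription, and capitals mark TTTGAA (the core of the homology region) or CCAAT in either orientation, so that CCAAT on the other strand reads ATTGG.
Cdk1: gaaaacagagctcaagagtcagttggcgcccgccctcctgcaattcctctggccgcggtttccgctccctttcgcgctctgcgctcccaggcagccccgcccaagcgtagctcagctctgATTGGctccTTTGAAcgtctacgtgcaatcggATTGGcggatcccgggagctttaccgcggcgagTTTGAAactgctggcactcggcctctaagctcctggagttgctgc
Cdc20: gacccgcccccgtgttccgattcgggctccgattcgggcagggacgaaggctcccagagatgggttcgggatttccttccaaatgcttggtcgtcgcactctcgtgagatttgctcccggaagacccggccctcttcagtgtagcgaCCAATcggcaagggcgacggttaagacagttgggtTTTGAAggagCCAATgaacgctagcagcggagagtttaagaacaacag
Cenpa: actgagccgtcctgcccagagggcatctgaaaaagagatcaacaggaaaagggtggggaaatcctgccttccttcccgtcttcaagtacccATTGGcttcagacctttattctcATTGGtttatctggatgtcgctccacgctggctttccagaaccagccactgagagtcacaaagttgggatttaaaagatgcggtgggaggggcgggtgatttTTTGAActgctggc
Hmmr: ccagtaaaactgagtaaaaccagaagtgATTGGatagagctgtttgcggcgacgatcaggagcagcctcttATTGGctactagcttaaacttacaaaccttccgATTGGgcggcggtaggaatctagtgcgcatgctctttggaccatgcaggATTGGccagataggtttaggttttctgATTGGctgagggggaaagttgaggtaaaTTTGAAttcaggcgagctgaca
Anln: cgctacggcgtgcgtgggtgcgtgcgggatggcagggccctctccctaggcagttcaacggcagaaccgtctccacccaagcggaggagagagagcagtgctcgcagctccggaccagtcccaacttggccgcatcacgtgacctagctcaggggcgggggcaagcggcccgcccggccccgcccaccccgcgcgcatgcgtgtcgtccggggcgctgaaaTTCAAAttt
In Cdk1, TTTGAA began at positions -71 and -15 relative to the start. Cdc20 held it at -18, Cenpa at 16 and Hmmr at 8. The Anln promoter held it at 21 and at 28, the latter running past the printed end, and had no CCAAT in the searched window. Hmmr held 5 copies of CCAAT, between -172 and -20. Ncaph, with the smallest adjusted p of the condensin group, was left out by the limit of 5 shown. Its promoter, at chr2:127133925-127134154 on the minus strand, held neither motif.

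The wider search covered 250 bases before to 50 bases after the start on both strands, in which 47 of the 54 measured members had 52 promoters, some of them alternative starts of 1 gene that can overlap. TTTGAA was found in 37 of the 52 (71.2%), against 17.9% of all 32851 promoters of the same length. CCAAT was found in 38 (73.1%), against 37.4% of all promoters. Both occurred together in 32 (61.5%), against 6.95%. The E2F-type site GCGGGAA was found in 3 (5.77%), against 4.6%. No overlap between the 3 motifs was removed. By member, TTTGAA was present in 26 of the 36 with a promoter that passed the test of expression described next and in 8 of the 11 that did not. CCAAT was present in 27 of those 36 and 6 of those 11. These are matches of letters, not measured binding sites.

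**Figure D1:**
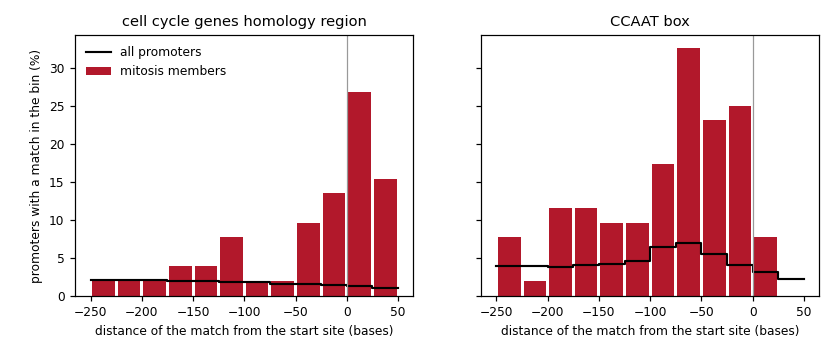
Share of promoters (percent) with a match to the homology region core or the CCAAT box in 25-base bins, by distance in bases from the annotated start. Bars show the 52 member promoters and the line all 32851 promoters. TTTGAA matches of members peak from 0 to 25 bases after the start (26.9% against 1.31% of all promoters), and CCAAT matches from 75 to 50 bases before it (32.7% against 6.99%).

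Expression of the mitotic genes was higher in fetal liver than in bone marrow progenitors. Of 54 members, 41 rose in fetal liver, 0 fell and 13 did not pass the test (limma, Benjamini-Hochberg adjusted p under 0.05 over all 11645 genes tested). In that fit 17.8% of all tested genes were called higher and 18.3% lower. The median log2 fold change of the members (taken as fetal liver over bone marrow) was 0.46, against 0.04 over all tested genes. On the scale of MAS5 signal, the linear brightness of a probe set, the members' shifts ran from a log2 fold change of 0.07 to 1.09. All 54 values were positive, where 6320 of all 11645 tested genes were. Even so, 8 of the 54 had an unadjusted p of 0.05 or more. In bulk samples like these, more cells in mitosis and more RNA per cell in fetal liver cannot be told apart.

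In 47 of the 54 members every fetal liver array lay above every bone marrow array, a separation seen in 26.7% of all tested genes. The other 7 overlapped, and 0 lay wholly below bone marrow, where 23.7% of all tested genes did. Shifts of at least 1.25-fold were seen in 41 members (75.9%, against 22.3% of all tested genes) and of at least 1.5-fold in 17 (31.5%, against 9.68%). Only 2 members, Plk1 and Aurka, reached 2-fold (3.7%), a share close to the 4.26% of all tested genes. All members passed the filter on low signal, and none owed this to fetal liver, since the lowest member signal on any array was 46.1 and the filter stood at 22.9.

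The median member lay 0.47, 0.50 and 0.44 above its bone marrow mean (log2) on fetal liver arrays 1, 2 and 3. Of the 54 members, 54, 52 and 53 were above that mean on these arrays. Among the bone marrow arrays the median member lay at -0.08, 0.06 and 0.03, with array 1 the lowest. On these arrays 12, 42 and 38 of the 54 were above that mean. Members thus moved together from array to array within a tissue, and their counts are not separate observations. Leaving out bone marrow array 1, 2 or 3 left 33, 36 and 31 members called higher, and leaving out fetal liver array 1, 2 or 3 left 38, 36 and 35. Calls also changed among all 11645 tested genes. Without bone marrow array 1 or 2, 1562 and 1540 of these were called higher, against 2074 with all arrays. Over all these fits, 2865 to 4436 genes were called in either direction, against 4208. Of the 41 called, 30 kept the call whichever array was left out, and the other 11 are named with their role groups.

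**Figure D2:**
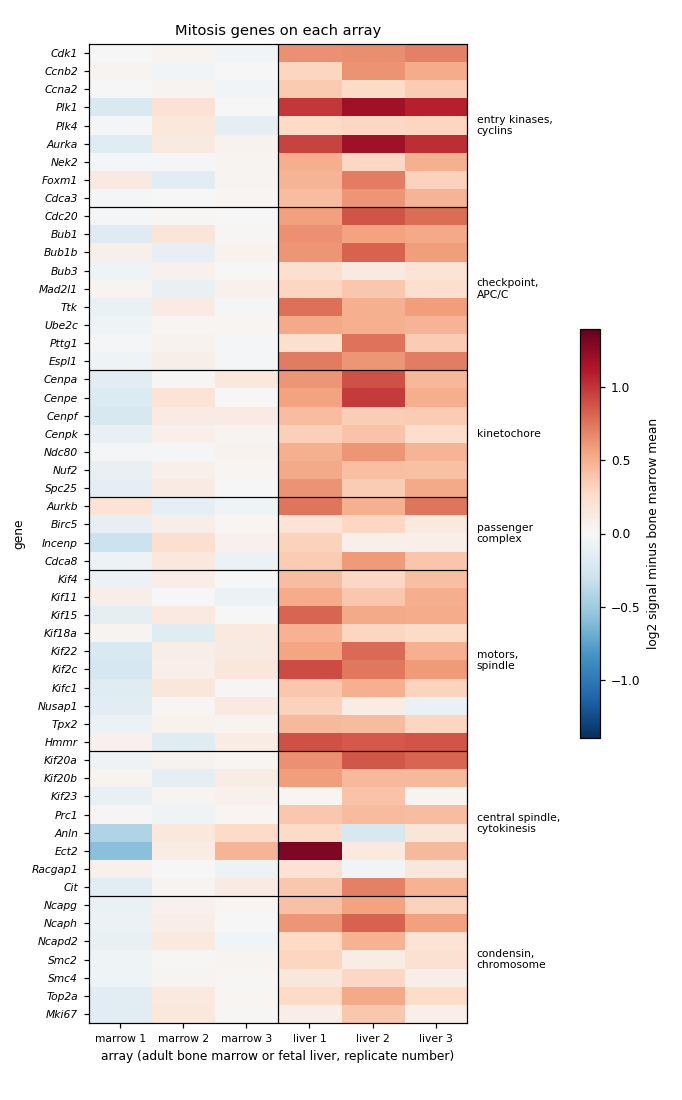
Log2 signal of each of the 54 members (rows, by role) on each of the 6 arrays (columns), minus the gene's mean over the 3 bone marrow arrays. The fetal liver columns are red in nearly every row. Anln and Racgap1 lie below their bone marrow mean on fetal liver array 2, and Nusap1 does on fetal liver array 3.

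**Figure D3:**
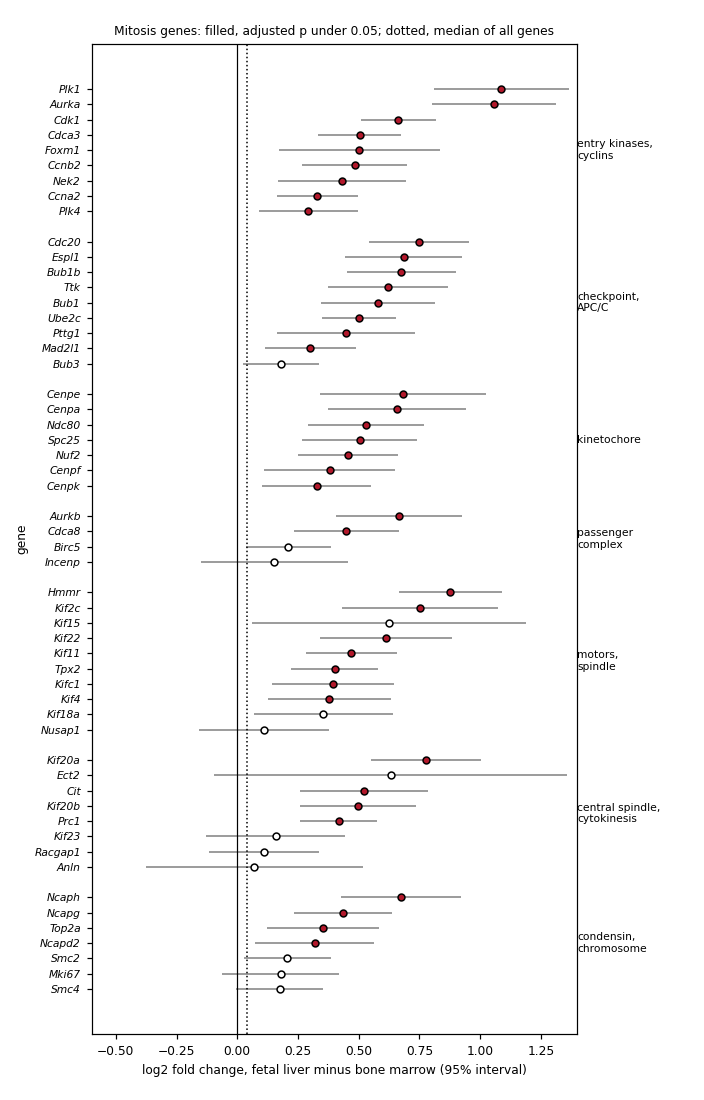
Log2 fold change of each member in fetal liver relative to bone marrow, with its 95% confidence interval, filled where the limma adjusted p was under 0.05. The values run from 0.07 for Anln to 1.09 for Plk1, and the dotted line at 0.04 marks the median of all tested genes.

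All 9 measured kinases, cyclins and regulators of mitotic entry rose in fetal liver, with a median log2 fold change of 0.50 and separated arrays for each. Cdk1 encodes the kinase that starts mitosis. Its signal was 3425, 3520 and 3347 in bone marrow and 5335, 5374 and 5585 in fetal liver. The gap between the tissues was far wider than the spread within either, a log2 fold change of 0.66 (SE 0.07, adjusted p = 9.98e-05). Aurka, the Aurora kinase of the centrosome and spindle poles, gave 926, 1133 and 1078 in bone marrow and 2006, 2380 and 2128 in fetal liver. This was a 2.08-fold rise (log2 fold change 1.06, SE 0.11, adjusted p = 0.000127). Plk4, the kinase that starts centriole duplication, showed the smallest shift of the group. It gave 2280, 2549 and 2113 in bone marrow against 2809, 2828 and 2845 in fetal liver, a log2 fold change of 0.29 (adjusted p = 0.0323). Without bone marrow array 3 the shift of Plk4 was 0.23 with an adjusted p of 0.151, and the call was also lost without bone marrow array 1 and without fetal liver array 2 or 3.

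Plk1, the Polo-like kinase active throughout mitosis, had the largest shift of all members and is named after its value was seen. Its signal was 781, 1041 and 911 in bone marrow and 1796, 2052 and 1930 in fetal liver, 2.13-fold higher (log2 fold change 1.09, SE 0.12, adjusted p = 0.000177). The other called genes of the group were the cyclins Ccnb2 (log2 fold change 0.48) and Ccna2 (0.33), the centrosome kinase Nek2 (0.43), the transcription factor Foxm1 (0.50), which drives late cell cycle genes, and Cdca3 (0.50), linked to degradation of the mitotic inhibitor Wee1. Foxm1 lost its call without bone marrow array 2 or 3 or fetal liver array 2 (adjusted p = 0.0898, 0.0676 and 0.0828), and Nek2 without bone marrow array 2 or 3 or fetal liver array 3 (0.0565, 0.0556 and 0.0746). Fitted on its own, the second brightest probe set of Foxm1 was called higher, at 0.52. The third, with a mean signal of 382 against 526 for the brightest, gave 0.09 (limma adjusted p = 0.671).

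Of the 9 genes of the spindle checkpoint, the anaphase-promoting complex and separase, 8 rose and Bub3 did not pass the test, with a median log2 fold change of 0.58. Cdc20 is the activator through which the anaphase-promoting complex recognises cyclin B and securin. It measured 2689, 2756 and 2708 in bone marrow and 4048, 5006 and 4679 in fetal liver. Every fetal liver value lay well above the narrow bone marrow range, with a log2 fold change of 0.75 (SE 0.09, adjusted p = 0.000268). Ube2c, the ubiquitin-conjugating enzyme of the same complex, measured 3719, 3944 and 3950 in bone marrow and 5576, 5477 and 5373 in fetal liver. Its spread was small in both tissues, and the log2 fold change was 0.50 (SE 0.07, adjusted p = 0.000504). Bub3, a checkpoint protein that recruits the BUB kinases to kinetochores, measured 4614, 5027 and 4783 in bone marrow and 5607, 5252 and 5495 in fetal liver. Its arrays were separated, but the log2 fold change of 0.18 had an adjusted p of 0.0694.

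The checkpoint kinases Bub1 (log2 fold change 0.58) and Ttk (0.62) and the checkpoint protein Bub1b (0.68) rose by similar amounts. Mad2l1, which inhibits CDC20 while chromosomes are unattached, rose by 0.30. Both the separase gene Espl1 (0.69), which encodes the protease that cuts cohesin, and the gene of its inhibitor securin, Pttg1 (0.45), were higher. The call of Pttg1 was lost on leaving out bone marrow array 1, 2 or 3 (adjusted p = 0.0601, 0.0503 and 0.0675), and that of Mad2l1 without bone marrow array 2 (0.0792).

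All 7 kinetochore and centromere genes rose, with a median log2 fold change of 0.50. Cenpa, the histone H3 variant that marks centromeres, measured 1601, 1801 and 1971 in bone marrow and 2730, 3314 and 2472 in fetal liver. The arrays were separated, and the log2 fold change was 0.66 (SE 0.13, adjusted p = 0.00348). When its probe sets were averaged, the shift of Cenpa was 0.40 with an adjusted p of 0.0624. Ndc80, part of the complex that binds microtubules, measured 660, 663 and 696 in bone marrow and 951, 1032 and 937 in fetal liver, a log2 fold change of 0.53 (SE 0.11, adjusted p = 0.00435). Its partners in that complex, Nuf2 (0.45) and Spc25 (0.50), rose to a like extent.

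Cenpk, of the inner kinetochore network, had the smallest shift of these genes. It measured 1073, 1210 and 1185 in bone marrow and 1451, 1528 and 1373 in fetal liver, with separated arrays and a log2 fold change of 0.33 (adjusted p = 0.0303). Its dimmer probe sets pointed the other way, at -0.30 and -0.33, and averaging all of them gave -0.10 (adjusted p = 0.607). The call was also lost on leaving out any bone marrow array or fetal liver array 2 or 3. Cenpe, a kinetochore motor, and Cenpf, a large kinetochore protein, rose by 0.68 and 0.38 on the log2 scale. The call of Cenpf was lost on leaving out any array but bone marrow array 2 (adjusted p = 0.0555 to 0.0965), and it held in 9 of 18 alternative settings.

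The 4 genes of the chromosomal passenger complex, which corrects faulty attachments and later marks the division site, did not all pass. Aurkb, its kinase, measured 1965, 1571 and 1654 in bone marrow and 2893, 2435 and 2895 in fetal liver. Although bone marrow array 1 was the highest of its tissue, the arrays were separated, with a log2 fold change of 0.67 (SE 0.11, adjusted p = 0.00195). Cdca8, which encodes the subunit borealin, measured 3805, 4426 and 3759 in bone marrow and 5114, 6037 and 5220 in fetal liver, a log2 fold change of 0.45 (SE 0.10, adjusted p = 0.00601). Incenp, the scaffold of the complex, measured 3818, 5547 and 4897 in bone marrow and 5861, 4941 and 4924 in fetal liver. These arrays overlapped, and the log2 fold change was 0.15 (95% confidence interval -0.15 to 0.46, adjusted p = 0.405). The subunit survivin, from Birc5, had a log2 fold change of 0.21 with separated arrays (adjusted p = 0.0627).

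Among 10 spindle motors and microtubule proteins, 7 rose and Kif15, Kif18a and Nusap1 did not pass, with a median log2 fold change of 0.43. Hmmr, a spindle protein that also binds hyaluronan, measured 1908, 1627 and 1961 in bone marrow and 3398, 3310 and 3355 in fetal liver. Its fetal liver values were nearly equal and all lay above bone marrow, 1.84-fold higher (log2 fold change 0.88, SE 0.09, adjusted p = 0.00012). Kif11, the motor that pushes spindle poles apart, measured 2711, 2577 and 2422 in bone marrow and 3684, 3343 and 3644 in fetal liver, a log2 fold change of 0.47 (SE 0.08, adjusted p = 0.00227). Nusap1, a microtubule-bundling protein, measured 3054, 3440 and 3708 in bone marrow and 4238, 3641 and 3175 in fetal liver. Its arrays overlapped, with a log2 fold change of 0.11 (95% confidence interval -0.16 to 0.38, adjusted p = 0.502).

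Kif2c, which depolymerises microtubules at centromeres, rose by 0.75 and Kif22, which moves chromosome arms, by 0.61. Tpx2, which activates Aurora A on the spindle, rose by 0.40, the minus-end motor Kifc1 by 0.39 and the chromosome motor Kif4 by 0.38. Kifc1 lost its call without bone marrow array 1 or 3 or fetal liver array 2 (adjusted p = 0.0715, 0.0667 and 0.063). Kif4 lost it without bone marrow array 1 or 3 or fetal liver array 1 or 3 (adjusted p = 0.0729, 0.092, 0.0571 and 0.0914). Kif15, a motor that aids spindle bipolarity, was measured at low signal, with 46.1, 55.9 and 50.9 in bone marrow and 89.6, 73.4 and 73.1 in fetal liver. The arrays were separated and the log2 fold change was 0.62, with a wide interval of 0.06 to 1.19 (adjusted p = 0.0801). Kif18a, which limits chromosome movements at the spindle equator, had a log2 fold change of 0.35 with separated arrays (adjusted p = 0.0557).

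The 8 central spindle and cytokinesis genes were divided, with 4 that rose and 4 that did not pass. Kif20a, a central spindle motor, measured 1058, 1151 and 1139 in bone marrow and 1739, 2041 and 1969 in fetal liver. The arrays were well separated, with a log2 fold change of 0.78 (SE 0.10, adjusted p = 0.000381). Prc1, which bundles antiparallel microtubules at the midzone, measured 3414, 3262 and 3421 in bone marrow and 4361, 4591 and 4531 in fetal liver, a log2 fold change of 0.42 (SE 0.07, adjusted p = 0.00173). Cit, the citron kinase of the midbody, rose by 0.52 and the motor Kif20b by 0.50.

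The 4 that did not pass were both centralspindlin genes, Kif23 and Racgap1, together with Ect2, which activates RhoA at the division plane, and Anln, the ring scaffold anillin. This grouping by function was made after their values were seen. Kif23 measured 955, 1054 and 1071 in bone marrow and 1048, 1352 and 1055 in fetal liver, with overlapping arrays and a log2 fold change of 0.16 (95% confidence interval -0.13 to 0.44, adjusted p = 0.367). Racgap1 measured 1593, 1538 and 1454 in bone marrow and 1756, 1488 and 1708 in fetal liver, again overlapping, with a log2 fold change of 0.11 (-0.12 to 0.33, adjusted p = 0.433). Both intervals include 0 and end below the members' median of 0.46. Anln measured 634, 937 and 1023 in bone marrow and 1018, 726 and 952 in fetal liver. Those arrays overlapped fully in range, and the log2 fold change was 0.07 (-0.37 to 0.52, adjusted p = 0.805), turning to -0.14 without bone marrow array 1 and to -0.03 without fetal liver array 1.

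Ect2 was the most scattered member, at 602, 971 and 1256 in bone marrow and 2235, 993 and 1232 in fetal liver. Fetal liver array 1 stood apart, and the other fetal liver values lay within the bone marrow range. The log2 fold change was 0.63 with an interval of -0.09 to 1.36 (adjusted p = 0.158), and it was 0.29 without fetal liver array 1 and 0.34 without bone marrow array 1. The differences between these 4 genes and the other cytokinesis genes were not tested.

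Of 7 genes of condensin and chromosome structure, 4 rose, with a median log2 fold change of 0.32. Ncaph, the condensin I subunit that closes the ring, measured 841, 947 and 888 in bone marrow and 1369, 1582 and 1326 in fetal liver, a log2 fold change of 0.67 (SE 0.11, adjusted p = 0.00148). Ncapg, another subunit of condensin I, measured 2670, 2962 and 2899 in bone marrow and 3787, 4208 and 3549 in fetal liver, a log2 fold change of 0.43 (SE 0.09, adjusted p = 0.00519). In both genes the tissues were separated. Ncapd2 rose by 0.32 (adjusted p = 0.0469), a call held in 7 of 18 alternative settings and lost on leaving out any array but bone marrow array 2. Smc4, an ATPase core subunit shared by both condensins, measured 3987, 4268 and 4178 in bone marrow and 4630, 5058 and 4369 in fetal liver. Its arrays were separated but close, with a log2 fold change of 0.18 (adjusted p = 0.114). Its partner Smc2 gave 0.21 (adjusted p = 0.0685).

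Top2a, the topoisomerase that untangles sister chromatids, measured 4072, 5004 and 4643 in bone marrow and 5533, 6565 and 5445 in fetal liver. Each fetal liver value exceeded all of bone marrow, with a log2 fold change of 0.35 (SE 0.10, adjusted p = 0.0244). That call was lost without bone marrow array 1 or 3 or without fetal liver array 2 (adjusted p = 0.0848, 0.0634 and 0.0572). Mki67, the proliferation marker Ki-67, measured 5186, 6410 and 5849 in bone marrow and 6136, 7529 and 6105 in fetal liver. These ranges overlapped, and its log2 fold change was 0.18 (95% confidence interval -0.06 to 0.42, adjusted p = 0.223).

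Other probe sets of the same genes mostly pointed the same way. The 54 members had 132 probe sets, of which 118 passed the filter on low signal. Fitted one by one, 78 of the 118 were called higher and 0 lower, where 11.8% of all 27022 probe sets were called higher. Positive log2 fold changes were seen in 114. The 4 negative ones belonged to Cenpa (-0.08), Cenpk (-0.30 and -0.33) and Cit (-0.10), and none of these passed. Leaving aside the probe set that stood for each gene, 60 of the other 64 were positive and 38 were called higher, with a median of 0.54.

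In 30 of the 36 members with several tested probe sets (83.3%) the brightest gave a smaller log2 fold change than the next brightest. Over all 5959 genes with several this was so in 49.1%. That share takes in rising and falling genes (17.8% called higher, 18.3% lower), while every member's value was positive. The shares are therefore not like for like, and the share among rising genes alone was not computed. Incenp had a second probe set at 0.58 and a dimmer one at 0.77, both called higher, beside its brightest at 0.15. Smc2 had 3 others called higher, at 0.49, 0.48 and 0.50. For Smc4 the second brightest was called, at 0.32. No other member that had not passed held a probe set called higher, and 5 of the 13 had a single tested probe set, Ect2 among them.

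**Figure D4:**
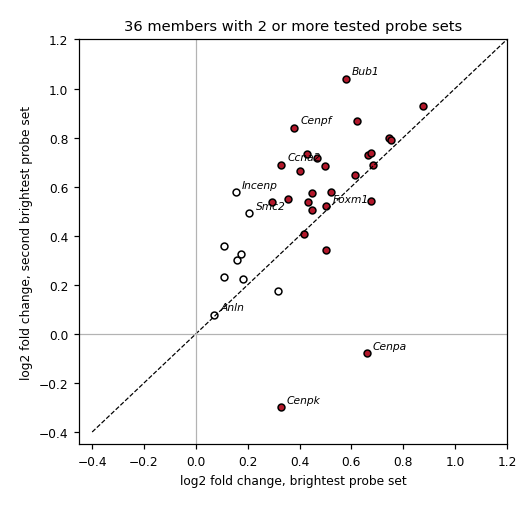
Log2 fold change in fetal liver relative to bone marrow of the second brightest against the brightest tested probe set of a gene. The 36 members with 2 or more tested probe sets are shown. Points are filled where the brightest, fitted on its own, was called higher. In 30 of the 36 the brightest gave the smaller value, and the second brightest of Cenpa and Cenpk lie below 0.

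The shift was also set against brightness, since MAS5 signals can saturate or lose precision at the ends of the range. With the members ranked by mean signal, the 18 dimmest held 13 called higher, the next 18 held 17 and the 18 brightest held 11. Their median log2 fold changes were 0.52, 0.51 and 0.38. Among all tested genes in the same signal ranges, 17.2%, 21.4% and 22.4% were called higher. The part of brightness in the size of the shift was not tested.

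Other genes of mitosis, from 5 lists that share no gene with the members, gave a smaller shift. Of 120 tested, 53 rose and 2 fell (44.2% higher, against 17.8% of all tested genes), with a median log2 fold change of 0.22. Median centring called 97 of them higher, where 46.2% of all tested genes were. Further kinetochore genes were nearest to the members, with 20 of 31 called higher, 0 lower and a median of 0.46. Cenpp and Cenph of the inner kinetochore rose by 0.98 and 0.71, and Ska1, which couples kinetochores to microtubules, by 0.66. Among further genes of mitotic entry and the anaphase-promoting complex, 18 of 31 rose, with a median of 0.28. They included the phosphatase Cdc25c (0.71), which activates CDK1, the complex subunit Anapc11 (0.69) and Gtse1 (0.81). Ensa, a regulator of the phosphatase that opposes CDK1, fell (log2 fold change -0.44, adjusted p = 0.019).

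In the spindle and centrosome list, 12 of 33 rose and 0 fell, with a median of 0.13. Dlgap5 and Tacc3, which stabilise spindle microtubules, rose by 0.72 and 0.65, and the centriole gene Sass6 by 0.57. Contractile ring and abscission genes had 3 of 19 called higher and 1 lower, with a median of 0.07. The share called higher, 15.8%, was no larger than the 17.8% of all tested genes, of which 18.3% were lower. Those higher were Shcbp1 (0.54), the formin Diaph3 (0.47) and Myh10, which encodes non-muscle myosin IIB. The signal of Myh10 was 124, 418 and 433 in bone marrow and 1046, 841 and 756 in fetal liver. Its arrays were separated, bone marrow array 1 was low, and the log2 fold change was 1.63 (SE 0.42, adjusted p = 0.0147). Septin6, a septin, fell (log2 fold change -0.47, adjusted p = 0.0157).

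None of 6 further chromosome structure genes passed, with a median of -0.04. Hmgb2 gave 0.16, Lmnb1 0.12 and Ncaph2 -0.14. DNA replication genes, active earlier in the cycle, had 13 of 32 called higher (40.6%) and 0 lower, with a median of 0.22. That count was 8 without bone marrow array 3, without fetal liver array 3 or with scaling to the spiked controls. Under that scaling 11.8% of all tested genes were called higher. The count was 29 with median centring, where 46.2% of all tested genes were higher. Gins3 of the replicative helicase rose by 1.04, and the nucleotide synthesis genes Tyms and Tk1 by 0.95 and 0.53. The differences between lists were not tested.

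**Figure D5:**
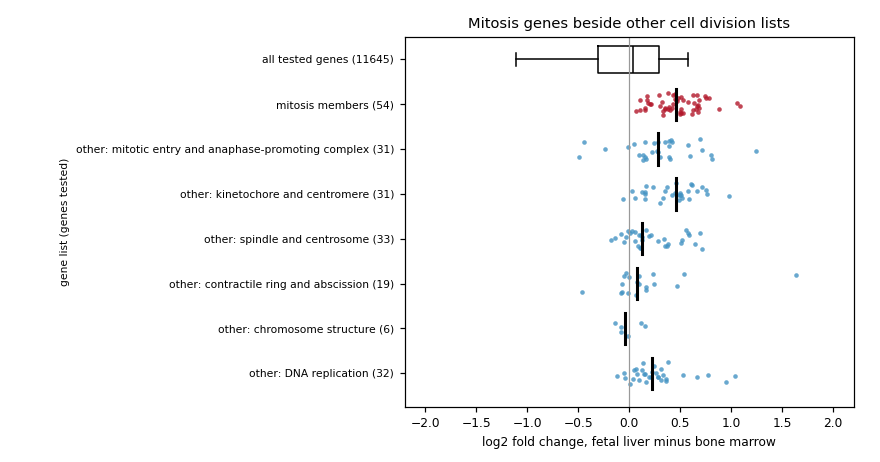
Log2 fold change in fetal liver relative to bone marrow of each tested gene in the member list, the 5 lists of other mitosis genes and the DNA replication list, with a bar at each median and a box for all 11645 tested genes. The member median lies at 0.46, the other kinetochore genes are close to it, and the contractile ring and chromosome structure lists lie near 0.

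Several measures differed between the tissues alongside these shifts. All 14 matched granulocyte and monocyte markers fell in fetal liver, and their summed signal was 60516 to 75090 in bone marrow and 7384 to 9317 in fetal liver. All 5 tested markers each of macrophages and of mast cells and basophils fell, as did 5 of 7 lymphoid markers. Summed signal went from 1572 to 1952 down to 289 to 317 for macrophages, from 3998 to 5211 down to 240 to 365 for mast cells and basophils, and from 3270 to 4926 down to 1455 to 1603 for lymphoid cells. Below the negative control level on all fetal liver arrays, but not on all bone marrow arrays, were the lymphoid genes Cd79a, Cd3e and Rag1, the mast cell and basophil genes Mcpt8, Fcer1a and Gzmb and the macrophage genes C1qc, Vcam1 and Cd5l. The lymphoid gene Pax5 and the erythroid gene Hba-a1 were below it on every array of both tissues. Erythroid markers had 1 of 10 higher and 4 lower, summing to 19058 to 31042 and 15538 to 17680.

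Of 11 megakaryocyte markers, 4 rose and 0 fell, with sums of 32750 to 39812 in bone marrow and 31998 to 50990 in fetal liver. Hepatoblast markers (2 of 4 higher, 1 lower) summed to 309 to 379 and 1049 to 1526, and endothelial markers (3 of 4 higher) to 1975 to 2247 and 3389 to 4293. Kit, which encodes the sorted receptor c-kit, measured 1793, 1909 and 1833 in bone marrow and 1542, 959 and 1173 in fetal liver. It fell, with a log2 fold change of -0.62 and an adjusted p of 0.0141. Itga2b and Slamf1, for CD41 and CD150, gave 0.01 and -0.07 (adjusted p = 0.963 and 0.886). Gata1, the gene that carries the genotype, measured 2453, 3326 and 3218 in bone marrow and 3931, 4615 and 4019 in fetal liver. It rose, with separated arrays and a log2 fold change of 0.49 (adjusted p = 0.0138). The part of these cell types, and of the levels of Kit and Gata1, in the shift of the mitotic genes was not tested.

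As for the arrays themselves, the median signal over all probe sets was 65.9 to 74.6 in bone marrow and 52.0 to 59.1 in fetal liver, and the 3′ to 5′ ratio of Actb was 1.30 to 1.42 over all 6. That of Gapdh was 1.39, 1.58 and 1.39 in bone marrow and 1.32, 1.38 and 1.32 in fetal liver, so that every bone marrow array lay above every fetal liver array. The part of RNA quality in the shift of the mitotic genes was not tested. Correlation of log2 signal was 0.954 to 0.962 within a tissue and 0.920 to 0.932 between them. The count of members called higher differed with the scaling of the arrays. Median centring over all probe sets called 53 members higher, where 46.2% of all tested genes were, and quantile normalization 41, where 20.2% were. Of the scalings added after the data were seen, centring on the tested genes called 45 (22.2% of all tested genes) and scaling to the spiked hybridisation controls 32 (11.8%). No member fell under any of these.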

How the data were processed

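Affymetrix arrays, 3 per tissue, measured RNA of sorted GATA1s megakaryocyte progenitors. The deposited values are linear intensity signals that the authors made with MAS5, per the submitters' processing notes (version not given in the sources used here). Every array had a trimmed mean (2% cut at both ends) of 500. Of 45037 probe sets that were not controls, 34945 had 1 gene symbol, 932 several and 9160 none, and only the first were named, from the platform annotation. Entrez identifiers matched a RefSeq table (GRCm38.p6) for 34741, with 0 symbols updated.

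The log2 of each signal was taken without an offset. Probe sets with a mean log2 signal above the 40th percentile (a signal of 22.9) were kept, 27022 in all, and the brightest stood for each of 11645 genes. limma 3.58.1 (R 4.3.3) fitted tissue alone with an intensity-trended variance prior and 4 residual degrees of freedom, and p-values were Benjamini-Hochberg adjusted over all genes with a threshold of 0.05. The number of arrays limits the precision. A negative control level, a signal of 10.6, is the 95th percentile of 27 unspiked control probe sets. The test was checked on simulated data, with 100 genes changed by each fold and drawn from all tested genes. It recovered 57% of them at 1.5-fold and 76% at 2-fold, and called 4 unchanged genes. All changes were upward, and far fewer genes were changed than the 4208 called in the data. The members were also brighter than most genes (median bone marrow signal 1772 against 797). These shares therefore do not give the recovery to be had for the members. Promoters were searched with Python 3.11.15.

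The members and lists were chosen with earlier results of these data known. Genes given with array values were, per role group, those with the 2 smallest adjusted p and the log2 fold change nearest 0. Mki67, Top2a, Cdk1, Cdc20 and Ect2 were given whatever their values. All members that did not pass were named at least by their fold change. The array values of Plk1, Kif15, Kif23, Racgap1, Myh10, Kit and Gata1 were given outside this rule. From each other list the 3 genes with the smallest adjusted p and any called against the majority were named. Alternatives covered the filter (none, or the 60th percentile), the scaling (quantile normalization or median centring), an added offset, averaging the probe sets of a gene, the variance model (no trend, a robust prior, ordinary statistics), a replicate block, leaving out each array and, added after seeing the data, centring on tested genes and scaling to spiked controls.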

Additional observations from a re-analysis of the deposited data

How the results depend on the processing

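In all 18 alternative settings 0 members were called lower, and the count called higher ran from 30 (ordinary statistics) to 53 (median centring), with 31 to 38 on leaving out 1 array. Of the 41 members called higher, 23 were called in every setting. Median centring over all probe sets moved the median of all genes from 0.04 to 0.38 and called 6725 genes, 5377 higher (46.2%) and 1348 lower (11.6%), against 2074 and 2134; it called 97 other mitosis genes and 29 DNA replication genes higher. The member median was 0.80 with that centring, 0.52 with centring on tested genes and 0.39 with scaling to spiked controls, 0.42 above the all-gene median in each, a gap that such shifts of whole arrays leave as it is. Quantile normalization gave a member median of 0.42 and a gap of 0.35. Spiked-control scaling called 8 DNA replication genes and 1376 genes higher against 2224 lower. Ordinary statistics called 2790 genes in all. Leaving out 1 array gave 2865 to 4436 called genes, 36 to 47 other mitosis genes, 8 to 13 DNA replication genes and a member median of 0.43 to 0.49. Cenpk turned to -0.10 with the mean of its probe sets, and Anln ranged from -0.14 to 0.22 on leaving out 1 array. Replicate numbers did not pair the samples (correlations -0.08, 0.07 and -0.11). A replicate block left 37 members and 1856 of all tested genes called higher. Among 30 named members over 18 settings, 487 values kept direction and call, 26 gained the call, 23 lost it and 3 turned; the cause was not tested. Small shifts of dim probe sets are limited by signal over background and by 3 arrays a tissue.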
